A study of Rattus norvegicus with 96 samples.

Results

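The expression of 9 genes that make, store and recapture dopamine or specify the neurons that do so was examined in 8 regions of the rat brain after alcohol dependence, after drinking without dependence, and without alcohol. The genes were Th, Ddc and Gch1 (synthesis), Slc18a2 and Slc6a3 (transport), and Nr4a2, Pitx3, En1 and Foxa2 (identity). A gene was read from the probe sets annotated to its symbol alone, and the probe set with the highest mean was used where there were several. In this way 8 of the 9 genes were measured, out of 14218 genes with such a probe set, through 14 of the 31099 probe sets of the array. En1 had no probe set of its own symbol and was not analysed here.

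RNA of microdissected tissue (30 or 50 ng, depending on the region) was amplified and hybridized to Affymetrix rat arrays, 1 array per region and replicate, with 3 groups of 4 replicates, giving 96 arrays. Dependent rats self-administered 10% alcohol for 4 weeks and were then exposed to intermittent alcohol vapor for 4 weeks, and non-dependent rats self-administered alcohol in the same way but breathed air. Both were sampled 3 weeks after the end of vapor exposure, during protracted abstinence, together with alcohol naive rats of the same age. The regions were the ventral tegmental area (VTA), the core and shell of the nucleus accumbens (NAc), the medial prefrontal cortex (mPFC), the central (CeA) and basolateral (BLA) amygdala, and the dorsolateral (dlBNST) and ventral (vBNST) bed nucleus of the stria terminalis. Of the 96 arrays, 92 were used: CeA non-dependent replicate 2, BLA non-dependent replicate 3, VTA non-dependent replicate 2 and vBNST dependent replicate 1 were left out, so that the VTA had 4 dependent, 3 non-dependent and 4 naive arrays.

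Dopamine neurons convert tyrosine to L-DOPA with tyrosine hydroxylase, which needs tetrahydrobiopterin as a cofactor, and L-DOPA to dopamine with aromatic amino acid decarboxylase. Dopamine is loaded into vesicles by the vesicular monoamine transporter and, once released, taken up again by the dopamine transporter. The cell bodies of the mesolimbic dopamine neurons lie in the VTA, whose axons reach the other regions studied here, and several transcription factors that are switched on in the embryonic midbrain stays on in these cells. Signals are log2 values normalized by GCRMA and are compared between arrays for 1 probe set, never between probe sets. In tissue RNA, fewer dopamine neurons in the sample and less RNA of a gene per neuron cannot be told apart.

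The promoters of the hydroxylase and of both transporters are shown because these genes gave the clearest separation of the VTA from the other regions. Each sequence runs from 250 bases before to 50 bases after the annotated start (RefSeq, build GRCr8), with matches to 5 short motifs in capitals on either strand. Th lies at chr1:207508169-207508468 (minus strand), Slc18a2 at chr1:268399771-268400070 (plus strand) and Slc6a3 at chr1:31578913-31579212 (minus strand).
Th: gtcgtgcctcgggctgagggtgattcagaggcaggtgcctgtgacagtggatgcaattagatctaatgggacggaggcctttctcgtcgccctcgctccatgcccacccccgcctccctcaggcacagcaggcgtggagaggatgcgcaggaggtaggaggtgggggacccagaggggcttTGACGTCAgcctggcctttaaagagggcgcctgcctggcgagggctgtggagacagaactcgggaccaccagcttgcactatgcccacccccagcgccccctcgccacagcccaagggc
Slc18a2: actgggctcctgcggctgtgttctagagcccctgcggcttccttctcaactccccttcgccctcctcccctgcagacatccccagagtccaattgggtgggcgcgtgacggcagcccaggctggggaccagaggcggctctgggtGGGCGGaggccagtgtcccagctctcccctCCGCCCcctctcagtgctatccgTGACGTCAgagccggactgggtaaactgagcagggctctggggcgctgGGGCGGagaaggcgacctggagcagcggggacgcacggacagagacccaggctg
Slc6a3: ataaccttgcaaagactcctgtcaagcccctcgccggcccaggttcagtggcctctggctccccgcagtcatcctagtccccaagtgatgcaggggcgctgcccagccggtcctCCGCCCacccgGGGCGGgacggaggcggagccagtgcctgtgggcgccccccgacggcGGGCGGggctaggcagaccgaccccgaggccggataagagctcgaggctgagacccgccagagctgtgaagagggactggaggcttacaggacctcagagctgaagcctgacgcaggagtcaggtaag
The capitals mark TGACGTCA, the cAMP response element, and GGGCGG, the GC box. The cAMP response element began 69 bases before the start in Th and 52 bases before it in Slc18a2, and it was absent from the Slc6a3 window. It is found in 1.83% of all 33469 promoter windows of the same length, the GC box in 33.1%. Slc18a2 and Slc6a3 each held 3 GC boxes. AAAGGTCA, the site bound by a single Nr4a2 molecule, occurs in 1.43% of windows. Among the 9 genes it was found in 1 of 3 annotated Ddc promoters, 73 bases before that start. The forkhead core TGTTTAC (3.78% of windows) matched none of the 9 genes, and the homeodomain site TAATCC (7.17%) matched only En1. A match is a run of letters and was not tested for binding.

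The highest correlation of an array with any other was at least 0.990 for the 92 kept, against 0.38 to 0.96 for the 4 left out, and the mean of the bacterial hybridization controls was 7.44 to 10.42 against 10.85 to 14.31. The distance between the 3′ and 5′ probe sets of Gapdh ran from 0.26 to 2.95 log2 units over the 92 arrays. The study took its profiles from 4 rats per group, so that the regions share animals, which the labels do not tie to arrays. The dopamine neuron markers Th, Slc6a3, Slc18a2 and Ddc are themselves genes of the set, so their level is no separate check of the VTA tissue. Their mean log2 signal in the VTA was 9.85 to 10.34 in dependent, 10.12 to 10.47 in non-dependent and 9.05 to 10.78 in naive arrays. Markers of noradrenaline and adrenaline neurons (Dbh, Slc6a2, Pnmt) were at or below 3.40 in every VTA array. Slc6a4, the serotonin transporter, was present at very unequal levels, from 3.59 to 9.90, whereas Fev, a transcription factor of serotonin neurons, stayed at or below 3.15.

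Synthesis genes were confined to the VTA at the level of the filter used here, a mean log2 signal above 4, apart from Ddc. Th, the rate-limiting enzyme, read 7.88 at the lowest, 9.46 at the median and 10.92 at the highest of 11 VTA arrays, against 2.81, 3.20 and 4.27 over the 81 arrays of the 7 forebrain regions. No forebrain array reached the lowest VTA array. The share of all genes with VTA and forebrain ranges apart is not given, here and below. Gch1, GTP cyclohydrolase, which makes the first committed step towards tetrahydrobiopterin, read 5.72, 7.91 and 9.73 in the VTA and 1.98, 2.41 and 3.63 in the forebrain. These ranges were apart as well, although Gch1 spread over 4.01 log2 units among the VTA arrays alone. Ddc, the decarboxylase shared by dopamine and serotonin neurons, read 7.97, 9.31 and 10.01 in the VTA and 3.21, 3.97 and 5.47 in the forebrain. The difference between the VTA and the mean of the 7 forebrain regions was 6.35 ± 0.10 (SE) for Th, 5.17 ± 0.15 for Gch1 and 5.16 ± 0.10 for Ddc on the log2 scale. Each SE of this difference, here and below, comes from a spread per gene pooled over all regions. Most arrays are forebrain arrays, in which these genes vary little. Over the VTA arrays alone the SD was 0.77 for Th, 1.19 for Gch1 and 0.62 for Ddc, so the SEs understate the spread there. With forebrain regions under the filter set to 4, the VTA signal was at least 49.0-fold (Th), 12.7-fold (Gch1) and 33.6-fold (Ddc) higher. These bounds hold for the probe set used and against the mean of the 7 regions.

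Both transporters had the widest separation of the 7 genes above the filter in the VTA. Slc18a2, the vesicular monoamine transporter, read 10.09, 11.23 and 12.08 (lowest, median and highest) in the VTA and 2.72, 3.13 and 4.67 in the forebrain. Slc6a3, the plasma membrane dopamine transporter, read 9.66, 10.60 and 11.02 in the VTA and 2.55, 3.04 and 3.51 in the forebrain. Slc6a3 varied over 1.36 log2 units among VTA arrays, the narrowest range of the 7 genes above the filter there. The VTA exceeded the forebrain by 7.93 ± 0.10 for Slc18a2 and 7.44 ± 0.064 for Slc6a3. On the probe sets used this was at least 141-fold and 89.2-fold against the filter level of 4, under which their forebrain region means lay.

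The identity genes fell into 3 patterns. Foxa2, a forkhead factor of the embryonic floor plate and of the dopamine neurons that arise from it, followed the transporters. It read 5.75, 7.65 and 9.01 in the VTA and 2.09, 2.38 and 2.71 in the forebrain, a difference of 5.32 ± 0.12, and at least 13.1-fold against the filter level. Nr4a2 (Nurr1), an orphan nuclear receptor that switches on several of the synthesis and transport genes, was not restricted to the VTA. It read 4.94, 5.46 and 7.13 in the VTA and 3.33, 4.07 and 5.60 in the forebrain, and 3 of 81 forebrain arrays exceeded the lowest VTA array. The difference was 1.63 ± 0.098, at least 2.95-fold on the probe set used. Pitx3, a homeodomain factor of midbrain dopamine neurons, was at the floor everywhere, at 1.92 to 2.46 in the VTA and 1.85 to 2.40 in the forebrain, so that its probe set gave no level in the tissue in which the gene is known to be active.

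Th, Gch1, Slc18a2, Slc6a3 and Foxa2 entered the comparison only through the VTA, since no forebrain region had a mean above the filter, so their differences are a description. Ddc and Nr4a2 each had 4 forebrain regions above it, and both were higher in the VTA (limma, adjusted p = 2.15e-56 and 1.88e-25 over all 9890 genes). In that comparison 41% of all genes tested were called higher and 36.2% lower, with a median difference of 0.029. The fit treats arrays of the same rats as independent, which these p-values do not account for.

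**Figure D1:**
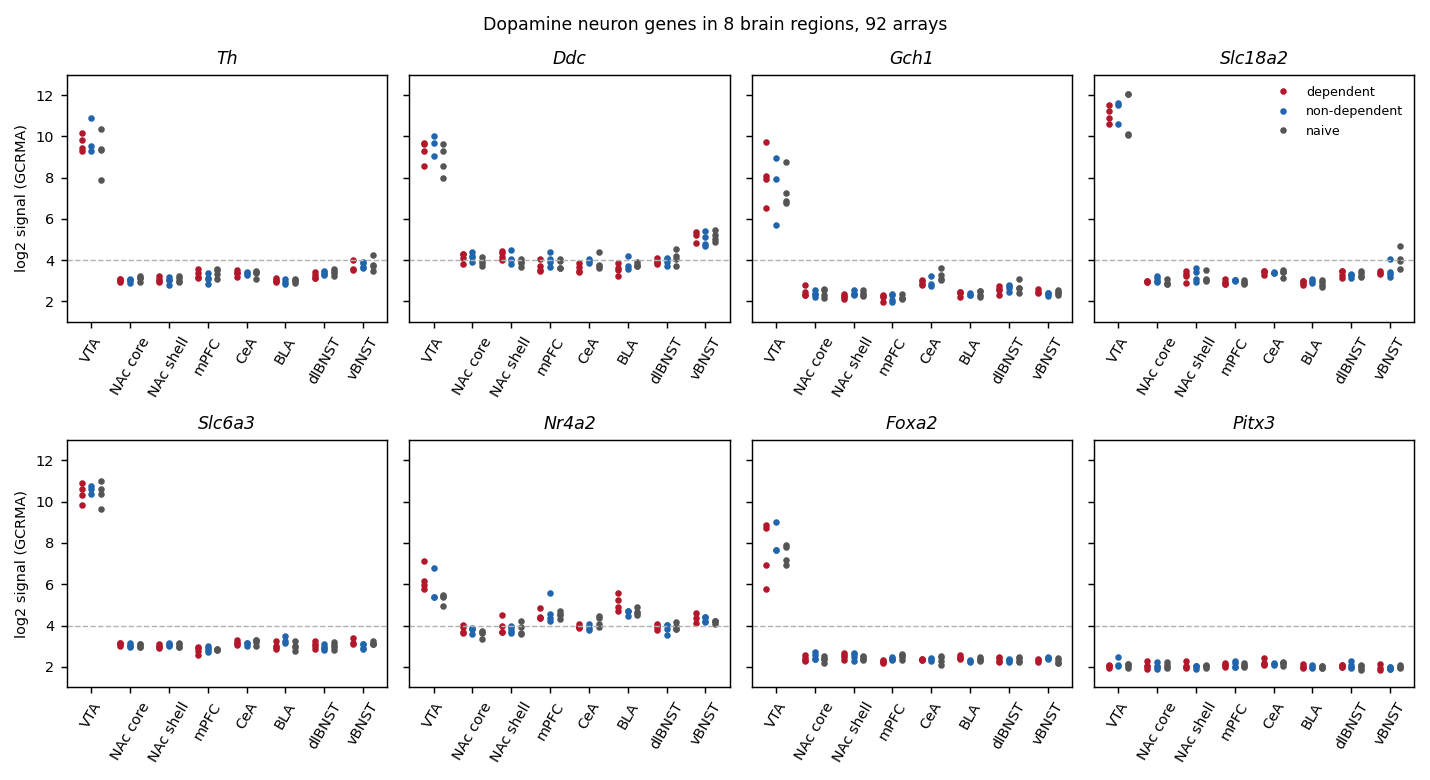
Log2 signal (y axis) of the 8 measured genes by brain region (x axis); each point is 1 of 92 arrays, colored by group, and the dashed line is the filter at 4. The region means of Th, Gch1, Slc18a2, Slc6a3 and Foxa2 are above the line in the VTA only, Ddc and Nr4a2 each have 4 further regions above it, and Pitx3 lies between 1.85 and 2.46 in all 92 arrays.

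Outside the VTA, 8 of the possible combinations of gene and region had a mean above the filter, 4 for Ddc and 4 for Nr4a2. Ddc averaged 5.09 ± 0.28 (SD, n = 11) in the vBNST, where its 11 arrays (4.68 to 5.47) did not overlap those of the next region, the NAc core (3.72 to 4.38). The NAc core, NAc shell and dlBNST had means of 4.07, 4.07 and 4.01, with overlapping ranges, and the other regions were under the filter. Nr4a2 was ordered differently: 4.81 ± 0.34 in the BLA (n = 11), 4.57 ± 0.37 in the mPFC (n = 12), 4.28 ± 0.15 in the vBNST (n = 11) and 4.03 ± 0.21 in the CeA (n = 11), each overlapping the next. Th and Slc18a2 had no forebrain region mean above the filter. Some vBNST arrays exceeded it, up to 4.27 for Th and 4.67 for Slc18a2. The vBNST arrays of Slc18a2 averaged 4.07 ± 0.45 (SD, n = 4) in naive, 3.50 ± 0.40 (n = 4) in non-dependent and 3.40 ± 0.090 (n = 3) in dependent rats. This was not tested, since the region mean was under the filter.

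Second probe sets of the same genes did not always tell the same story. For Slc18a2 a second probe set read 10.86 ± 0.25 (SD, n = 11) in the VTA and at most 4.51 in the forebrain, and the remaining one read 4.23 ± 0.24 in the VTA and at most 3.34 in the forebrain. The second Nr4a2 probe set read 5.17 ± 0.64 in the VTA and 4.68 ± 0.39 in the BLA. The second probe set of Ddc was highest in the NAc shell (4.58 ± 0.67, n = 12), followed by the VTA (4.20 ± 0.44, n = 11). Those of Gch1 (2.16 in the VTA) and Slc6a3 (2.74) were near the floor. With the mean of all probe sets of a gene, the difference between the VTA and the forebrain was 2.58 for Gch1, 2.96 for Ddc and 4.08 for Slc6a3, over 1.5 times smaller than on the probe set used.

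Other genes known from midbrain dopamine neurons were read from 6 lists with 75 genes besides the 9, chosen like them with results of these data known. Of these, 53 were measured and tested, 35 (66%) were higher in the VTA and 12 (22.6%) lower, against 41% and 36.2% of all genes, with a median difference of 0.55. Of the 35, 5 entered the test only through their VTA mean, among them En2, Sncg and Chrna5. En2, the second engrailed factor, exceeded the forebrain by 6.85 ± 0.060 and read 9.62 ± 0.39 in the VTA. Ret, a receptor for neurotrophic factors of the GDNF family, was higher by 6.61 ± 0.17, and Aldh1a1, a retinaldehyde dehydrogenase that also oxidizes the aldehyde of dopamine, by 6.52 ± 0.18. Slc17a6, the vesicular glutamate transporter of subcortical neurons including a part of the VTA neurons, was higher by 6.35 ± 0.28. Slc10a4, a vesicular transporter-like protein of monoamine and cholinergic neurons, was higher by 4.15 ± 0.12, and Kcns3, a potassium channel subunit, by 3.94 ± 0.19. Sncg (gamma-synuclein) was higher by 3.67 ± 0.10 and Chrna5, a nicotinic receptor subunit, by 2.95 ± 0.16. Among those lower in the VTA, Penk, the enkephalin precursor, differed by -2.52 ± 0.13 and Nr4a3, a relative of Nr4a2, by -2.04 ± 0.18; both were picked after their values were seen.

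Genes were ranked by the likeness of their pattern to that of Slc6a3, as the Pearson correlation over the 24 means of region and group, among 9889 genes. The points share regions and arrays and the VTA means carry most of the value, so this is a description. The first 10 were En2 (r = 0.999), Foxa2 (0.996), Slc39a4 (0.996), Slc18a2 (0.996), Th (0.992), Smim5 (0.992), Gch1 (0.990), Slc6a4 (0.988), Slc66a3 (0.988) and Cyp2j10 (0.987). Ddc held place 23 (r = 0.972) and Nr4a2 place 397 (r = 0.809). Foxa2, Slc18a2, Th and Gch1 were thus within the first 10.

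The first question on treatment was whether dependent rats differed from non-dependent rats in the VTA. Th read 9.46, 10.19, 9.29 and 9.80 in dependent arrays, against 9.30, 9.52 and 10.92 in non-dependent and 7.88, 9.41, 9.33 and 10.35 in naive arrays. All 3 groups overlapped. Ddc read 9.63, 9.30, 8.58 and 9.66 in dependent, 9.05, 9.67 and 10.01 in non-dependent and 8.58, 9.31, 7.97 and 9.66 in naive arrays, again with overlap. Gch1 read 8.10, 7.92, 6.52 and 9.73 in dependent, 7.91, 5.72 and 8.94 in non-dependent and 7.28, 8.77, 6.75 and 6.88 in naive arrays. The groups overlapped over most of their range.

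Slc18a2 read 10.92, 11.23, 10.60 and 11.54 in dependent, 11.52, 11.64 and 10.58 in non-dependent and 10.09, 12.05, 10.14 and 12.08 in naive arrays, so that the naive arrays held both the lowest and the highest values. Slc6a3 read 9.86, 10.64, 10.92 and 10.31 in dependent, 10.60, 10.76 and 10.38 in non-dependent and 9.66, 10.62, 10.39 and 11.02 in naive arrays. Its group means were within 0.16 of each other. Foxa2 read 5.75, 8.74, 8.85 and 6.91 in dependent, 7.64, 9.01 and 7.65 in non-dependent and 7.20, 6.93, 7.90 and 7.81 in naive arrays. The dependent arrays of Foxa2 split into a higher and a lower pair that lay on either side of all 4 naive arrays.

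No gene of the set passed the test between groups in the VTA (limma, adjusted over all genes). For dependent minus non-dependent rats the log2 differences ran from -0.54 (Foxa2, 95% confidence interval -2.00 to 0.93) to 0.54 (Gch1, -1.26 to 2.35), with 2 of 7 above 0 and a lowest adjusted p of 0.61. For non-dependent minus naive rats all 7 were above 0, from 0.10 (Gch1) to 0.69 (Ddc, -0.17 to 1.56), with a lowest adjusted p of 0.76. Their median was 0.55 against a median of -0.0055 over all genes tested. The 7 genes are read from the same arrays and some vary together, so their common sign is not 7 separate observations. For dependent minus naive rats the range was -0.016 (Slc18a2, -1.05 to 1.02) to 0.96 (Nr4a2). These comparisons share arrays, and 0% of the 8813 genes tested was called in any of them. At p under 0.05 without adjustment, 15.3% of genes passed for dependent against non-dependent, 6.51% for non-dependent against naive and 8.43% for dependent against naive rats, and the set had 0, 0 and 1 of 7. For Gch1 the interval of each comparison leaves room for changes of more than 1 log2 unit in either direction. For Foxa2 (-1.25 to 1.46) and Slc18a2 (-1.05 to 1.02) this holds only for dependent minus naive rats. The interval of Slc6a3 was the narrowest, at -0.61 to 0.63 for dependent minus naive rats.

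**Figure D2:**
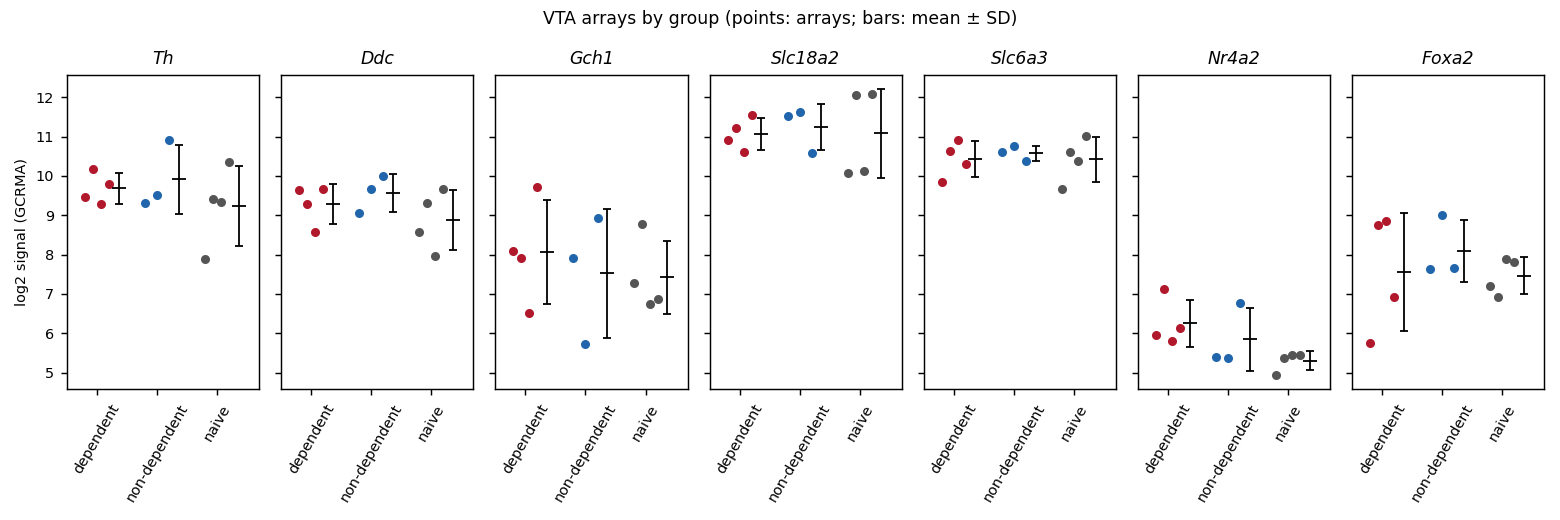
Log2 signal (y axis) of 7 genes in the VTA by group (x axis); points are arrays in order of their replicate number, bars the mean ± SD of 4 dependent, 3 non-dependent and 4 naive arrays. The groups overlap in every panel except dependent against naive in Nr4a2, where the dependent arrays lie at 5.79 to 7.13 and the naive arrays at 4.94 to 5.46.

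**Figure D3:**
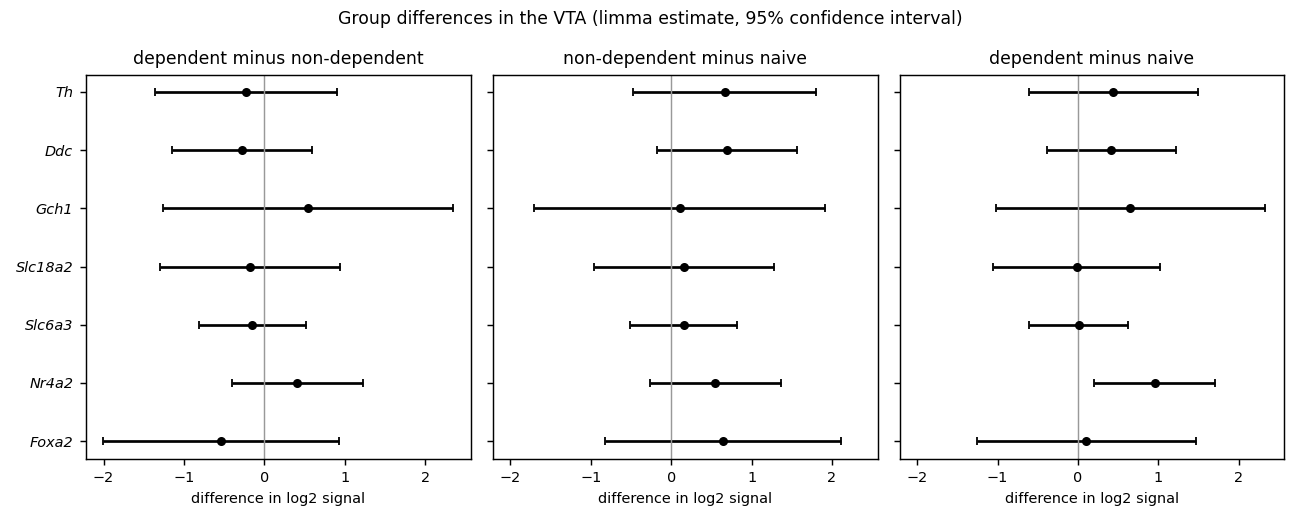
Differences in log2 signal in the VTA (x axis) for 7 genes (y axis) in 3 comparisons; points are limma estimates and lines their 95% confidence intervals, not adjusted for the number of genes. Only the interval of Nr4a2 in dependent minus naive rats, 0.20 to 1.71, does not reach 0.

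Nr4a2 was the member with the smallest p. It read 5.96, 7.13, 5.79 and 6.14 in dependent arrays, against 5.39, 5.37 and 6.78 in non-dependent and 4.94, 5.36, 5.46 and 5.44 in naive arrays. The dependent and naive groups did not overlap, which was so for 3.72% of genes in that comparison, and the non-dependent arrays lay across both. No member was free of overlap between dependent and non-dependent arrays (14.9% of genes were) or between non-dependent and naive arrays (6.38%). The difference between dependent and naive rats was 0.96 ± 0.34 (SE), place 274 of 8813 genes by p, and did not pass after adjustment (adjusted p = 0.55, limma). On the second probe set the values were 5.12, 6.30, 5.25 and 4.46 in dependent, 4.54, 5.48 and 5.46 in non-dependent and 4.19, 5.24, 4.87 and 5.98 in naive arrays. There the groups overlapped and the difference was 0.21 ± 0.43 (adjusted p = 0.92). The distance between the 3′ and 5′ probe sets of Gapdh, a sign of RNA integrity, was 1.53 to 1.65 in dependent and 1.55 to 2.49 in naive VTA arrays. That of beta-actin ran the other way, at 7.83 to 8.43 in dependent and 6.78 to 7.93 in naive VTA arrays. The part of RNA integrity in the Nr4a2 values was not tested.

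In the 7 forebrain regions, 24 tests of members above the filter were made and none passed. Over all genes, 0% was called in these comparisons with 3 exceptions, which were non-dependent against naive (0.0779%) and dependent against naive rats (0.0556%) in the mPFC and dependent against naive rats in the dlBNST (0.103%). Before adjustment 3 of the 24 tests had p under 0.05, and each of these had a higher level in dependent rats.

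Nr4a2 was involved in 2 of them, both in the BLA. It read 4.89, 4.71, 5.59 and 5.24 in dependent, 4.47, 4.70 and 4.69 in non-dependent and 4.91, 4.64, 4.49 and 4.60 in naive arrays. The lowest dependent array lay barely above the highest non-dependent array, and dependent and naive arrays overlapped. The difference was 0.49 ± 0.19 against non-dependent rats (adjusted p = 0.78) and 0.45 ± 0.17 against naive rats (adjusted p = 0.83). Over all genes in the BLA, 5.81% had p under 0.05 and 6.76% had no overlap for dependent against non-dependent rats, and 5.94% and 3.34% for dependent against naive rats. The second probe set read 4.97, 5.04, 5.12 and 5.30 in dependent, 4.31, 4.06 and 4.42 in non-dependent and 4.57, 4.70, 4.39 and 4.54 in naive arrays. Here the dependent arrays lay above all others, by 0.84 ± 0.12 over non-dependent (adjusted p = 0.10) and 0.56 ± 0.11 over naive rats (adjusted p = 0.72). The BLA array left out, non-dependent replicate 3, read 6.64 on the first probe set, and with it the difference against non-dependent rats was -0.016.

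**Figure D4:**
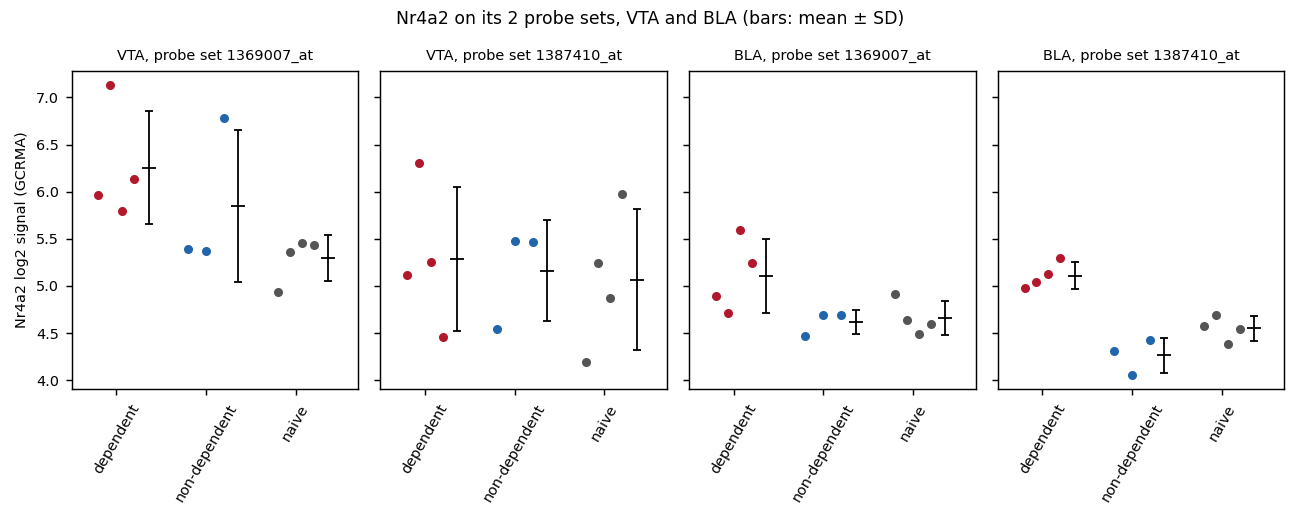
Log2 signal of Nr4a2 (y axis) on its 2 probe sets in the VTA and BLA by group (x axis); points are arrays, bars the mean ± SD of 4 dependent, 3 non-dependent and 4 naive arrays. The first probe set separates dependent (5.79 to 7.13) from naive arrays (4.94 to 5.46) in the VTA and the second does not, whereas in the BLA the second probe set separates dependent arrays (4.97 to 5.30) from both other groups.

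Ddc in the NAc shell gave the other such test. It read 4.43, 4.35, 4.01 and 4.15 in dependent, 3.82, 4.07, 4.49 and 4.00 in non-dependent and 3.93, 3.69, 4.04 and 3.88 in naive arrays, values around the filter. The difference between dependent and naive rats was 0.35 ± 0.15 (adjusted p = 0.40), in a comparison in which 12.2% of genes had p under 0.05 and 6.01% had no overlap. The second probe set read 4.79, 5.19, 5.88 and 5.11 in dependent, 3.67, 4.78, 4.76 and 4.85 in non-dependent and 3.97, 3.74, 4.21 and 4.05 in naive arrays. Its dependent and naive arrays were apart, and the difference was 1.25 ± 0.27 (adjusted p = 0.26). In the vBNST, where Ddc was highest in the forebrain, dependent and naive rats differed by -0.018 ± 0.20.

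Whether a group difference in the VTA exceeded the mean difference of the 7 forebrain regions was tested as an interaction over the 92 arrays, taken as independent although regions share rats. No member passed, against 3.6% of 9890 genes for dependent over non-dependent, 0.202% for non-dependent over naive and 0.516% for dependent over naive rats. Nr4a2 came closest, in dependent over naive rats, with 0.86 ± 0.23 (adjusted p = 0.057). The value depended on the replicate number left out, in all regions and groups at once, and on the probe set. It was 0.56 (adjusted p = 0.78) without replicate number 2, 0.78 (adjusted p = 0.33) without number 1 and 0.45 (adjusted p = 0.49) with the mean of both probe sets, and with all 96 arrays the adjusted p was 0.94. Leaving out replicate number 3 gave 1.08 (adjusted p = 0.0092) and added Gch1 at 1.06 (adjusted p = 0.042), and leaving out number 4 gave 0.999 for Nr4a2 (adjusted p = 0.029). For Th the interaction in non-dependent over naive rats was 0.74 ± 0.25, with an adjusted p of 0.24. The spread here was pooled over all 92 arrays, and Th and Gch1 were under the filter in every forebrain region. Their interactions thus mainly repeat the VTA differences with a smaller SE, for Th 0.25 against 0.52 in the VTA fit. For Nr4a2 in dependent over naive rats the SEs were 0.23 and 0.34. These adjusted p-values do not reflect the full spread of the VTA arrays. The share of all genes called without a replicate number is not given.

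Of the genes of the 6 other dopamine lists, 51 were tested in the VTA and none passed after adjustment in any of the 3 comparisons. For dependent against non-dependent rats 3 were higher (Sox6, Gfra2, Tacr3) and 3 lower (Slc17a6, Kcns3, Qdpr) at p under 0.05 without adjustment, which is 11.8% of the 51 and under the 15.3% of all genes. The 2 higher and the 2 lower genes with the smallest p in each comparison are described. Sox6, a transcription factor of one class of dopamine neurons, read 7.05, 7.08, 6.45 and 5.96 in dependent, 5.43, 5.74 and 5.20 in non-dependent and 5.32, 5.43, 6.62 and 6.25 in naive arrays, a difference of 1.18 ± 0.35 between the drinking groups (adjusted p = 0.18). Gfra2, a co-receptor of Ret, read 6.60, 6.44, 5.05 and 5.89 in dependent, 5.16, 4.96 and 5.29 in non-dependent and 5.03, 5.24, 4.96 and 5.39 in naive arrays (0.86 ± 0.30, adjusted p = 0.24). For Gfra2, dependent replicate 3 was the one dependent array within the range of the other groups.

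The same array was not low in the genes that were lower in dependent rats. Kcns3 read 6.04, 5.70, 9.61 and 7.75 in dependent, 8.98, 9.47 and 8.52 in non-dependent and 8.77, 8.64, 9.09 and 8.66 in naive arrays, and Slc17a6 read 10.77, 11.58, 12.79 and 11.41 in dependent, 12.69, 12.98 and 12.04 in non-dependent and 12.43, 12.35, 12.82 and 12.54 in naive arrays. The differences between dependent and non-dependent rats were -1.72 ± 0.73 and -0.93 ± 0.38 (adjusted p = 0.30 and 0.29). Without dependent replicate 3 they were -2.49 (adjusted p = 0.029) and -1.32 (adjusted p = 0.040), and that of Gfra2 was 1.17 (adjusted p = 0.021). This array was singled out after its values in these genes were seen, so passing without it is no support. These were the largest differences among 7 fits that each left out 1 array. The ranges were -2.49 to -1.19 (Kcns3), -1.32 to -0.64 (Slc17a6) and 0.66 to 1.17 (Gfra2). The share of all genes called without this array is not given.

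Against naive rats, 11.8% of the 51 had p under 0.05 without adjustment in dependent rats (8.43% of all genes) and 5.88% in non-dependent rats (6.51%). The 2 higher and 2 lower genes with the smallest p in dependent rats were Gfra2 (0.84 ± 0.28), and Tacr3, the neurokinin 3 receptor (1.27 ± 0.43), and Slc17a6 (-0.90 ± 0.36) and Kcns3 (-1.51 ± 0.67), with adjusted p of 0.55, 0.55, 0.55 and 0.58. Without dependent replicate 3, the array singled out above, Gfra2 (1.16, adjusted p = 0.027) and Kcns3 (-2.29, adjusted p = 0.048) passed. Over the 8 fits that each left out 1 array, the differences ran from 0.64 to 1.16 and from -2.29 to -0.99. The genes chosen in the same way for non-dependent rats were Sncb, beta-synuclein (0.43 ± 0.15), and Chrna5 (1.87 ± 0.80), and Aldh9a1, an aldehyde dehydrogenase (-0.41 ± 0.16), and Pts, a tetrahydrobiopterin enzyme (-0.41 ± 0.22), with adjusted p of 0.67, 0.72, 0.70 and 0.76. The medians of the 51 genes were within 0.031 of 0 in all 3 comparisons.

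Variation between VTA arrays of the same group was large for these genes. The SD within groups was 1.28 for Gch1, 1.04 for Foxa2, 0.80 for Th, 0.79 for Slc18a2, 0.61 for Ddc, 0.57 for Nr4a2 and 0.46 for Slc6a3, against a median of 0.22 over 8813 genes, and the 7 genes stood between percentiles 91.3 and 99.7 of that distribution. The genes did not vary as 1 block. With group means taken off, the 21 pairwise correlations over 11 arrays ran from -0.65 to 0.76; they are given as a description. Th and Nr4a2 had the highest (r = 0.76, rho = 0.81, and r = 0.95 without the 2 arrays farthest from the median of Th). Gch1 and Foxa2 had the lowest (r = -0.65, rho = -0.81, and -0.58 without 2 arrays), and Slc6a3 and Foxa2 were at 0.66 (rho = 0.57, and 0.60 without 2 arrays).

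The level of Slc6a4 moved with this variation. Slc6a4 marks serotonin neurons, which also use Ddc, Slc18a2 and Gch1 and lie in the raphe nuclei behind the VTA. It read 9.54, 8.40, 5.15 and 9.86 in dependent, 7.27, 3.59 and 9.04 in non-dependent and 9.90, 9.11, 6.51 and 4.06 in naive arrays, so that high and low arrays occurred in each group. Over the 11 arrays its correlation was 0.81 with Gch1 (rho = 0.75), place 25 from the top of 8812 genes. It was -0.76 with Slc6a3 (rho = -0.85), place 85 from the bottom, and -0.70 with Foxa2 (rho = -0.83), place 197 from the bottom. Without the 2 arrays farthest from the median of Slc6a4 the values were 0.72, -0.69 and -0.70. The other members were at -0.26 (Slc18a2), -0.16 (Th), 0.092 (Ddc) and 0.28 (Nr4a2), and 0.62 for Ddc without the 2 arrays. This relation was noticed in the data and carries no test. Of the 3 serotonin markers 2 were measured, and Fev was at or below 3.15 throughout.

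**Figure D5:**
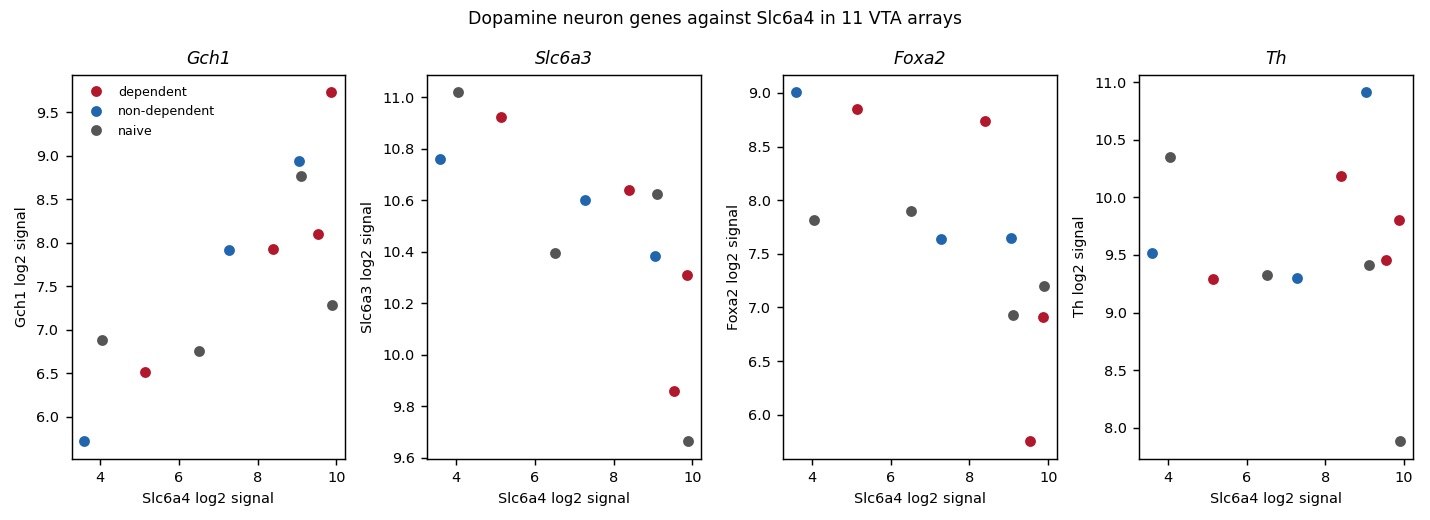
Log2 signal of Gch1, Slc6a3, Foxa2 and Th (y axes) against that of Slc6a4 (x axes) in 11 VTA arrays, colored by group. Gch1 is higher in arrays with more Slc6a4 (r = 0.81), Slc6a3 and Foxa2 are lower (r = -0.76 and -0.70), and Th shows little relation (r = -0.16).

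Other cells of the dissection also varied. Slc5a7, the choline transporter of cholinergic neurons, read 4.22 to 11.70 over the VTA arrays. Chat, their acetyltransferase, read 2.57 to 8.52 with a mean of only 3.52. Slc18a3, their vesicular transporter, stayed near the floor at 2.28 to 2.63. Gata2, a factor of serotonin and midbrain GABA neurons, read 3.93 to 4.93. The mean of the myelin genes Mbp and Mog was 10.48 to 11.33 in dependent, 10.96 to 11.94 in non-dependent and 10.69 to 11.39 in naive arrays, and its correlation with Gch1, with group means taken off, was 0.90 over 11 arrays. The mean of Gad1, Gad2 and Slc32a1, markers of GABA neurons, was 8.81 to 9.62, 8.86 to 9.53 and 8.70 to 9.63 in dependent, non-dependent and naive arrays, and its correlation was 0.82 with Gch1 and -0.72 with Foxa2. The part of these cells in the levels of the dopamine genes was not tested. Ranked by the correlation of their VTA values with the mean of the 7 members, with group means taken off, the first 10 of 8806 genes were Zfp354a (r = 0.98), Kdm5b, Col24a1, Ywhae, Idua, Exosc1, Ptcd1, Ephx2, Slc39a4 and Kansl3 (0.92). Only Slc39a4 was also among the 10 genes most like Slc6a3 across regions.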

How the data were processed

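Rat brain regions were profiled on Affymetrix arrays. The authors deposited 1 table of log2 values for 31099 probe sets and 96 arrays, background-corrected and normalized with GCRMA (version 2.36.0 in the submitters' notes); the number of arrays, not a read depth, limits precision. Of the probe sets, 20832 carried 1 gene symbol, 436 several and 9831 none. Where a gene had several single-symbol probe sets, the brightest on average over the kept arrays was used. Genes with a mean log2 value above 4 were tested with limma 3.58.1 (R 4.3.3), in each region for 3 group comparisons and over 92 arrays for the VTA against the mean of 7 forebrain regions and for interactions, with Benjamini-Hochberg adjustment over all genes and a threshold of 0.05. The 4 arrays left out had higher hybridization controls and lower correlations with other arrays than those kept.

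The members, gene lists and marker lists were chosen with earlier results of these data known. The text names every member, the 2 higher and 2 lower dopamine list genes with the smallest p in each VTA group comparison, the 8 with the largest VTA differences, and the 10 genes most like Slc6a3 or the member mean. The study gives 4 rats per group for its 8 regions, but the labels do not tie arrays to rats, so tests across regions treat arrays as independent, and p-values measure the spread between these samples. Deviations of same-numbered VTA arrays had a median correlation of 0.092 (-0.066 to 0.47), and those of differently numbered ones -0.020 (-0.43 to 0.24). Numbers were not taken as pairs, since the labels do not say what an equal number shares. Whether same-numbered arrays share a batch was not tested. Alternatives were the filter, normalization, probe set, array weights, samples in the fit, all 96 arrays and a replicate block. Each VTA array was also left out in turn, and each replicate number in all regions and groups at once. Scripts were tested on simulated data.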

Additional observations from a re-analysis of the deposited data

Results flagged for a closer look

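Of 34 groups of 4 arrays in which a member was above the filter, 2 held an array far from the others, where chance flags about 1 in 20 groups. In the mPFC, Nr4a2 read 4.86 in dependent replicate 4, against 4.36 to 4.42 in the other dependent arrays. In the vBNST, Nr4a2 read 4.07 in naive replicate 3, against 4.21 to 4.23 in the other naive arrays.

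Among values above the filter of 4, arrays left out of the comparisons exceeded all naive arrays of their region in 6 instances; values under the filter were not considered. In the VTA, non-dependent replicate 2 read 10.43 for Gch1 (naive arrays 6.75 to 8.77), 6.82 for Nr4a2 (4.94 to 5.46) and 8.95 for Foxa2 (6.93 to 7.90), while Ddc was below them at 6.38 (7.97 to 9.66). The kept non-dependent VTA arrays read 5.72 to 8.94 for Gch1, 5.37 to 6.78 for Nr4a2, 7.64 to 9.01 for Foxa2 and 9.05 to 10.01 for Ddc. The Foxa2 value was thus within its own group, and that of Nr4a2 barely above it. In the CeA, non-dependent replicate 2 read 5.09 for Nr4a2 (naive arrays 3.91 to 4.46) and 4.65 for Foxa2 (2.09 to 2.52). In the BLA, non-dependent replicate 3 read 6.64 for Nr4a2 (naive arrays 4.49 to 4.91).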

How the results depend on the processing

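The 7 genes stayed higher in the VTA than in the forebrain under the alternatives run, of which the filter at 6 could not be applied to Nr4a2, but the mean of all probe sets lowered Slc6a3 to 4.08, Ddc to 2.96 and Gch1 to 2.58. Counts of members called between groups moved with array weights, to 1 in the VTA for dependent over non-dependent rats (Nr4a2, 0.94, adjusted p = 0.049, limma). With the same weights they moved to 2 for the interactions (Nr4a2 against non-dependent rats, 0.89, and against naive rats, 0.99). Quantile normalization gave 1 interaction (Nr4a2 against naive rats, 0.89). Leaving out a replicate number in all regions gave between 0 and 2 interactions. Array weights also took Gfra2 (1.05), Sox6 (1.26), Kcns3 (-2.29) and Slc17a6 (-1.24) past the threshold for dependent over non-dependent rats. The share of all genes called under each of these alternatives is not given. These calls therefore cannot be read as results about these genes in particular. The cause was not tested. The replicate block changed no call of a member. In the VTA fit the replicate number was a fixed factor (Nr4a2 in dependent over naive rats, 0.96, adjusted p = 0.42, limma). In the fit of 92 arrays, group with replicate number was a random block, with a consensus correlation of -0.0026. A group difference turned its sign, none of them past the threshold, as follows. For dependent over non-dependent rats in the VTA, Ddc was 0.52 with all 96 arrays, 0.22 with array weights, 0.12 with the mean of all probe sets and 0.52 with the second probe set, an alternative chosen after seeing the data. Gch1 was -0.18 with all 96 arrays, Th 0.36 with array weights, and Slc18a2 0.12 with the mean of probe sets and 0.28 with the second. In the BLA, Nr4a2 was -0.016 with all 96 arrays. For non-dependent over naive rats, Ddc was -0.10 with all 96 arrays and -0.13 with the second probe set, Th -0.028 with array weights, and Slc18a2 -0.017 with the mean of probe sets and -0.14 with the second. For dependent over naive rats, Slc18a2 was 0.012 with arrays shifted to 1 median, 0.10 with the mean of probe sets and 0.15 with the second, and Slc6a3 -0.19 with array weights and -0.0039 with quantile normalization. Leaving out 1 VTA array gave, for dependent over naive rats, -0.32 to 0.71 (Foxa2), -0.35 to 0.31 (Slc18a2), -0.25 to 0.21 (Slc6a3) and -0.015 to 0.81 (Th). For dependent over non-dependent rats it gave -0.96 to 0.068 (Foxa2), -0.36 to 1.25 (Gch1), -0.51 to 0.019 (Slc18a2), -0.31 to 0.043 (Slc6a3) and -0.53 to 0.27 (Th). For non-dependent over naive rats it gave -0.60 to 1.01 (Gch1), -0.18 to 0.49 (Slc18a2) and -0.098 to 0.35 (Slc6a3). With 3 or 4 arrays a group and SDs up to 1.28 log2 units, small changes were not detectable. Signals near the floor, as for Pitx3, carry no order.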
